A study of Mus musculus with 12 samples.

Results

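H2-DMa, H2-DMb2, H2-Ob, Ciita and Ctss act after the class II major histocompatibility chains have been made, or switch those chains on. They were chosen by name from the panel, and they are 5 of its 561 genes. The labels describe Ter-119+ cells, that is cells bearing a surface antigen of the erythroid lineage, enriched with magnetic beads from the spleens of mice. The mice were male offspring of CBA and C57BL/6 parents, aged 3 to 5 months, and RNA came from 500000 cells in each sample. Counting used the nCounter platform with its Mouse Immunology v1 panel, which tags each target RNA with a colour-coded probe and counts the codes without amplification. The normal group had untreated mice, the acute blood loss group had lost 0.5 to 0.8 mL from the retro-orbital sinus under isoflurane, and the acute hypoxia group had spent 16 h in a chamber at -46 kPa, an altitude above 4500 m. Spleens of all groups were taken on day 3. Normal had 3 usable samples and the other groups 4 each: the fourth normal column held, in 561 of 561 genes, the middle value of the first 3 normal columns with 3 counts added, and was left out. The labels do not say which animal gave which sample or whether animals were pooled, so p-values measure the spread between these samples, which may be technical.

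Class II molecules carry peptides from endosomes to the cell surface, where CD4 T cells read them. The chains travel from the endoplasmic reticulum with the invariant chain (Cd74) in their groove. Cathepsin S, the product of Ctss, trims the invariant chain down to a short fragment, and the DM heterodimer of H2-DMa with a DM beta chain removes that fragment and edits the peptides that replace it. The DO heterodimer, whose beta chain is H2-Ob, binds DM and holds it back, chiefly in B cells. Ciita is the coactivator that switches on class II, DM and invariant chain genes by docking on factors bound to the X and Y boxes of their promoters. These genes are best known from B cells, dendritic cells and macrophages, and the title of the series asks about antigen-presenting transcripts in erythroid cells that carry CD45, the product of Ptprc.

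Promoter sequences are shown because Ciita acts through the X and Y boxes. RefSeq windows of 300 bases, 250 before the annotated start and 50 after it on GRCm38.p6, were matched for 4 of the 5 genes, all but Ciita, with 2 windows for H2-DMa. H2-DMa, H2-DMb2 and H2-Ob lie on chromosome 17 on the plus strand, in the order H2-DMa, H2-DMb2, H2-DMb1, Psmb9, Tap1, Psmb8, Tap2 and H2-Ob among protein-coding genes. Ctss lies on chromosome 3, with its window at chr3:95526536-95526835. The lines below give the stretch upstream of the start of H2-DMb2 (chr17:34145104-34145178), of H2-Ob (chr17:34238793-34238867) and of the class II beta chain gene H2-Eb1 as a reference (chr17:34305753-34305851), 5′ to 3′ on the plus strand. Capitals mark matches to the X box core ACNGATG and to the Y box core ATTGG, on either strand.
H2-DMb2: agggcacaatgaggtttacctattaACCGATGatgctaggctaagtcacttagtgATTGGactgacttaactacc
H2-Ob: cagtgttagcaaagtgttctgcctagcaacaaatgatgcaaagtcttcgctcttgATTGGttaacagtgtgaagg
H2-Eb1: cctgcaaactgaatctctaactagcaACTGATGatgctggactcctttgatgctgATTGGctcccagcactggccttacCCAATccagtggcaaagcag

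Positions are counted from the annotated start, negative upstream. H2-DMb2 held the X box core at -120 and the Y box core at -90, a pair also found in H2-Eb1. H2-Ob held the Y box core at -57 and no match to the X box core. The first H2-DMa window had neither and the second had a Y box core. Ctss had an X box core at -206. A gamma-activated site, TTCNNNGAA, was found in the H2-DMb2 window at -218 and in no other window of the 4 genes. Of 32851 promoter windows of the same length, 9.85% held the X box core, 37.4% the Y box core, 3.65% both and 8.3% the gamma-activated site, so single matches are common. A match describes letters in this window, and the absence of one says nothing about binding.

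Levels are raw counts divided by a factor for each sample, the geometric mean of 6 housekeeping genes. Normal samples held total counts of 43956 to 253712. Blood loss samples were the shallowest (7016 to 31006) and hypoxia samples held 44254 to 81370. The factors ran from 0.135 in blood loss 3 to 6.19 in Normal 3. All 5 genes passed the filter of a raw count of at least 20 in at least 3 samples, as did 282 of the 547 endogenous genes. In the 4 blood loss samples the filter level was reached by H2-DMa and H2-DMb2 in 4, by Ctss in 3, and by H2-Ob and Ciita in 2, so the blood loss values of the last 2 rest on raw counts of 10 to 64. Those of Ctss rest on raw counts of 10 to 70. Adjusted p-values come from edgeR's quasi-likelihood test with Benjamini-Hochberg adjustment over all 282 genes, and a gene was called at a value under 0.05.

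H2-DMa, the alpha chain of the peptide editor, stood at 153, 357 and 280 in Normal 1, 2 and 3, a mean of 263 ± 103 (SD, n = 3). Blood loss samples 1 to 4 had 157, 193, 193 and 164, a mean of 177 ± 19.0 (SD, n = 4). Hypoxia samples 1 to 4 had 146, 154, 223 and 226, a mean of 187 ± 42.9 (SD, n = 4). Normal 1 lay below all 4 blood loss samples and above only hypoxia 1, so both treated groups overlapped with normal. The 2 treated groups overlapped each other as well. The difference from normal was -0.59 on the log2 scale after blood loss (SE 0.30, 95% interval -1.20 to 0.02, adjusted p = 0.135) and -0.50 after hypoxia (SE 0.29, interval -1.08 to 0.09, adjusted p = 0.150). H2-DMa was the member nearest to no change in hypoxia, and at -0.50 it lay beside the median of all 282 tested genes, -0.56. Without Normal 1 both differences were called, at -0.86 (adjusted p = 0.0187) and -0.76 (adjusted p = 0.0191).

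H2-DMb2, a beta chain of the editor, stood at 532, 874 and 795 in the normal samples, a mean of 734 ± 179 (SD, n = 3). After blood loss it stood at 412, 517, 445 and 321 (424 ± 81.4, SD, n = 4). After hypoxia it stood at 279, 295, 456 and 486 (379 ± 107, SD, n = 4). All 8 treated samples lay below all 3 normal samples, though blood loss 2, at 517, came close to Normal 1. The fall of 0.95 on the log2 scale in hypoxia passed the test (SE 0.31, adjusted p = 0.0133), while the blood loss difference of -0.80 (SE 0.31, adjusted p = 0.0578) did not. The hypoxia call was lost without Normal 2 (adjusted p = 0.0743), Normal 3 (0.0540) or hypoxia 1 (0.0543), and the blood loss difference was called without Normal 1 (0.0182) or blood loss 2 (0.0492). H2-DMb1, its neighbour on the chromosome, is a closely related gene, and whether the probe also captures its RNA is not given in the sources used here.

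H2-Ob, the beta chain of the DM inhibitor, had the largest fall of the 5 genes in hypoxia. Normal samples had 162, 238 and 228, a mean of 209 ± 41.6 (SD, n = 3). Blood loss samples had 52.3, 84.0, 89.0 and 90.0 (78.8 ± 17.9, SD, n = 4), and hypoxia samples had 55.8, 57.1, 36.5 and 36.6 (46.5 ± 11.5, SD, n = 4). Every treated sample lay below every normal sample, whereas the hypoxia and blood loss ranges overlapped through blood loss 1. H2-Ob fell by 1.42 after blood loss on the log2 scale (SE 0.29, 95% interval -2.02 to -0.81, adjusted p = 0.000955). In hypoxia it fell by 2.19 (SE 0.28, interval -2.76 to -1.61, adjusted p = 1.83e-06), the 13th lowest change of 282. Both calls held under all 23 alternatives, the weakest adjusted p being 0.00898 after blood loss and 0.000140 in hypoxia.

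Ciita, the class II transactivator, was called lower in hypoxia and not after blood loss. Normal samples stood at 45.2, 114 and 88.8 (82.8 ± 34.95, SD, n = 3). Blood loss samples stood at 33.8, 66.2, 74.2 and 60.5 (58.7 ± 17.5, SD, n = 4) and hypoxia samples at 19.3, 33.4, 39.4 and 54.0 (36.5 ± 14.4, SD, n = 4). Normal 1 lay among the blood loss samples and below hypoxia 4, so both treated groups overlapped with normal. In hypoxia Ciita fell by 1.19 (log2, SE 0.34, interval -1.89 to -0.50, adjusted p = 0.00554), a call lost without Normal 2 (adjusted p = 0.0699). After blood loss the difference was -0.55 (SE 0.37, interval -1.31 to 0.20, adjusted p = 0.256).

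Ctss, the protease, stood at 301, 398 and 321 in the normal samples (340 ± 51.2, SD, n = 3). It stood at 135, 178, 74.2 and 90.0 after blood loss (119.4 ± 47.0, SD, n = 4) and at 147, 153, 196 and 152 after hypoxia (162 ± 22.7, SD, n = 4). All treated samples lay below all normal samples, and hypoxia 3 was the highest of its group. Ctss fell by 1.48 after blood loss (log2, SE 0.29, interval -2.08 to -0.88, adjusted p = 0.000654), the 19th lowest change of 282, and by 1.06 in hypoxia (SE 0.28, interval -1.63 to -0.50, adjusted p = 0.00288). The blood loss call held under all 23 alternatives.

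**Figure D1:**
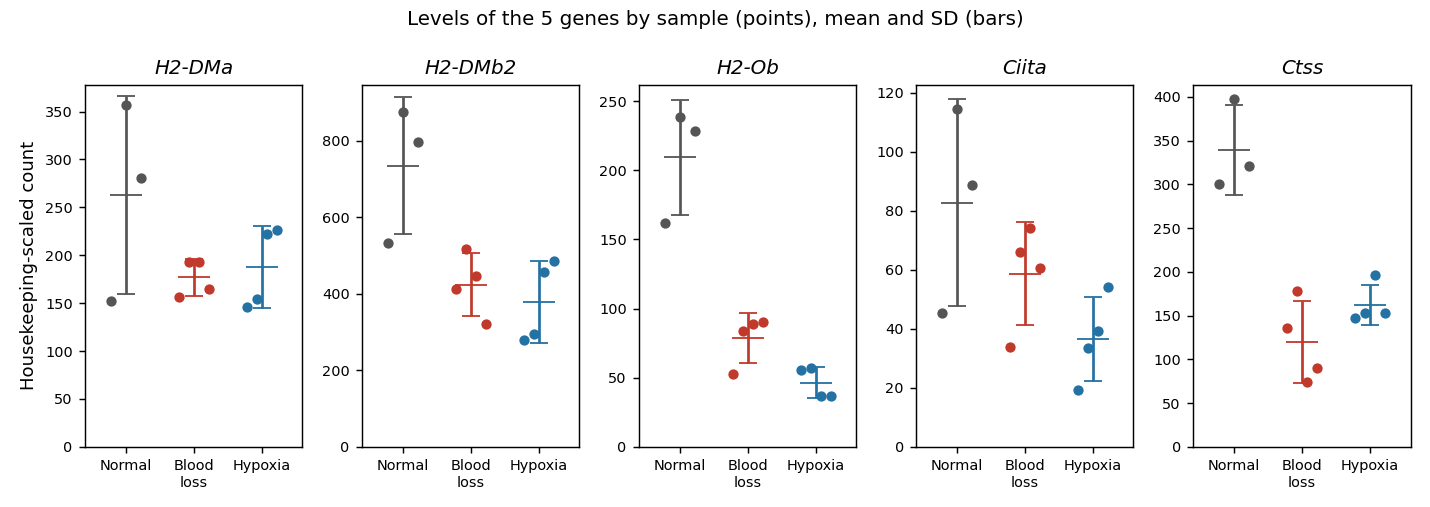
Housekeeping-scaled counts (vertical axis, from 0, scaled separately for each gene) of the 5 genes in 3 normal, 4 blood loss and 4 hypoxia samples, each point 1 sample, with the mean and SD as bars. H2-Ob and Ctss sit below the normal samples in all 8 treated samples, while H2-DMa and Ciita overlap through Normal 1.

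Counted together, 2 of the 5 genes (H2-Ob and Ctss) were called lower after blood loss, where 17% of the 282 tested genes were, and none was called higher, where 9.22% were. In hypoxia 4 of the 5 (all but H2-DMa) were called lower, beside 36.5% of tested genes, and none higher, beside 7.09%. In each comparison with normal 3 of the 5 (H2-DMb2, H2-Ob and Ctss) had all treated samples below all normal samples, beside 16.7% of tested genes after blood loss and 35.5% in hypoxia. The members' median log2 change was -0.80 after blood loss and -1.06 in hypoxia, where the tested genes had -0.26 and -0.56. Both comparisons share the normal samples. Without Normal 1, the shallowest normal sample, 4 of the 5 were called lower after blood loss and 5 in hypoxia. The share of all tested genes called lower without Normal 1 is not given here, so these 2 counts have no background beside them. Without Normal 2 the hypoxia count was 2 (H2-Ob and Ctss). Hypoxia calls over all tested genes, in either direction, were then also at their lowest among the 11 fits without 1 sample, at 67.

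With the housekeeping factors no member passed the test between hypoxia and blood loss, beside 10.6% of tested genes called lower and 0.709% higher in edgeR, and none had all hypoxia samples below all blood loss samples, beside 12.8%. At an unadjusted p under 0.05 there was 1 member, H2-Ob, at -0.77 (log2, interval -1.36 to -0.17, adjusted p = 0.0780 in edgeR), called without blood loss 1 (adjusted p = 0.0382). Under DESeq2 the same difference reached an adjusted p of 0.0470. The intervals of the other 4 were -0.48 to 0.67 for H2-DMa, -0.75 to 0.44 for H2-DMb2, -1.39 to 0.10 for Ciita and -0.15 to 0.98 for Ctss. Differences near 1 log2 unit are therefore not excluded by the intervals of Ciita and Ctss.

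**Figure D2:**
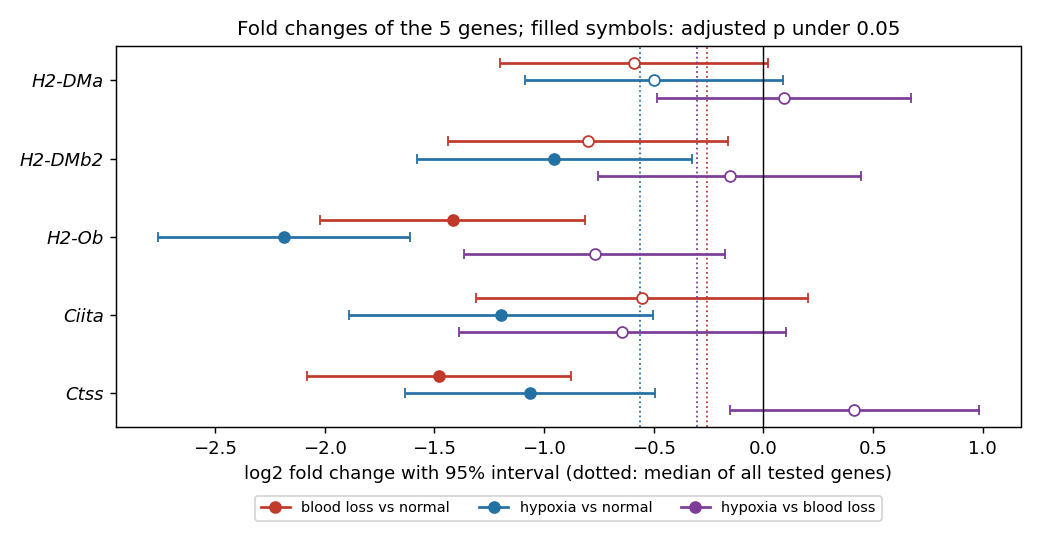
Log2 fold change (horizontal axis) of each gene in the 3 comparisons, with 95% intervals; filled symbols have an adjusted p under 0.05 in edgeR's test, and dotted lines mark the median of the 282 tested genes in each comparison. H2-Ob lies farthest left in hypoxia, at -2.19.

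The library factor decided several of these calls. With TMM factors, which assume that most genes do not change, the median change of tested genes in hypoxia went from -0.56 to 0.03. Only H2-Ob among the 5 was then called lower in hypoxia, beside 18.8% of tested genes. It was also the only one with size factors over the tested genes (19.5% of tested genes) or over all genes (22.3%). H2-DMa in hypoxia turned to 0.10 with TMM and to 0.076 with size factors over the tested genes, with adjusted p of 0.774 and 0.855. After blood loss the same TMM factors left H2-Ob and Ctss called, beside 13.1% of tested genes called lower. Size factors over all genes called all 5, beside 43.3% of tested genes called lower with those factors and a median change of -0.64. Between hypoxia and blood loss size factors over all genes turned the direction: H2-DMa, H2-DMb2 and Ctss were called higher in hypoxia, beside 33% of tested genes, and H2-Ob went from -0.77 to 0.075. In the authors' deposited normalized counts, which use such size factors, H2-DMa averaged 284 in normal and 285 in hypoxia samples, and H2-Ob averaged 231 in normal, 64.2 in blood loss and 70.3 in hypoxia samples.

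**Figure D3:**
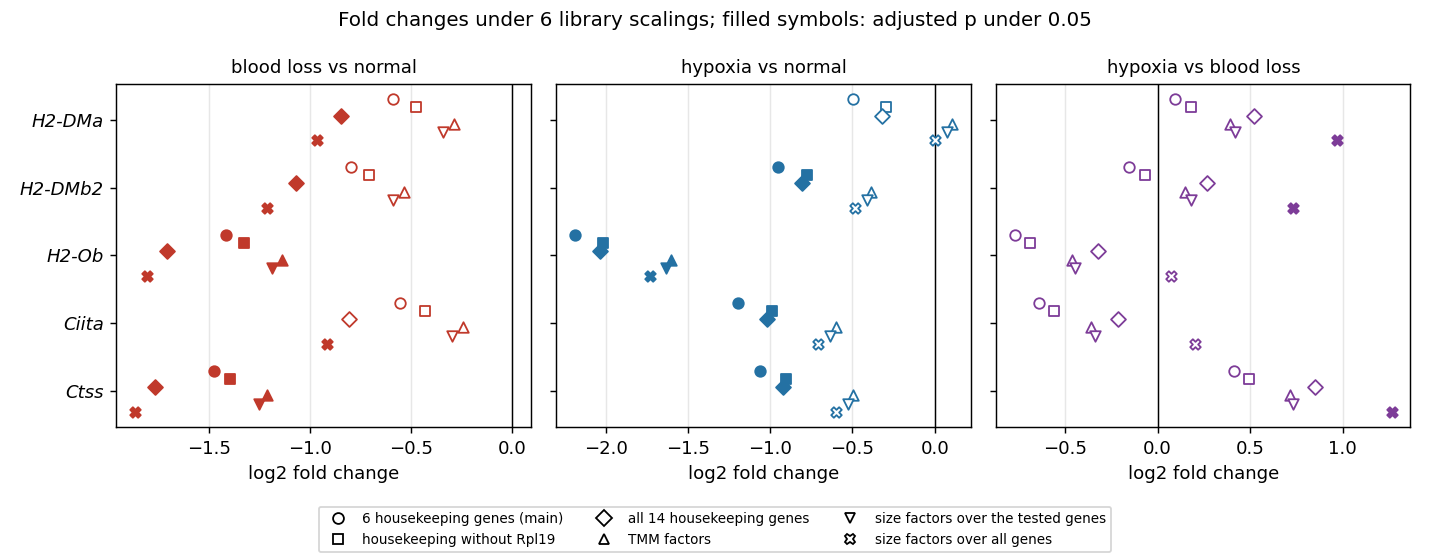
Log2 fold changes (horizontal axis) of the 5 genes in each comparison under 6 ways of setting the library factor, 1 symbol for each. H2-Ob stays left of 0 under every factor in both comparisons with normal, whereas H2-DMa crosses 0 in hypoxia.

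Ratios of 2 genes inside 1 sample do not depend on the library factor. There were 15 ratios, the 10 pairs of the 5 genes and each gene over Ptprc, in 3 comparisons. After blood loss 5 of the 15 had groups that did not overlap, beside 33.5% of 39621 pairs of tested genes. In hypoxia 7 of 15 did, beside 41.8%, and between hypoxia and blood loss 1 did, beside 14.3%. None of the 45 exact two-sided permutation tests passed after adjustment (lowest adjusted p = 0.171), and 1 had an unadjusted p under 0.05. With 3 samples against 4 no p below 0.0571 is possible, and with 4 against 4 none below 0.0286. The ratios named next were chosen after their values were seen.

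For the inhibitor against the editor, raw H2-Ob over raw H2-DMa was 1.06, 0.667 and 0.814 in the normal samples. It was 0.333, 0.434, 0.462 and 0.547 after blood loss. It was 0.382, 0.369, 0.164 and 0.162 after hypoxia. Every treated sample lay below every normal one, and hypoxia 3 and 4 lay well below hypoxia 1 and 2. The log2 difference from normal was -0.93 after blood loss and -1.75 in hypoxia, each with an exact p of 0.0571, the smallest possible.

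Against the DM beta chain the pattern was less even. H2-Ob over H2-DMb2 was 0.304, 0.272 and 0.287 in normal samples and 0.200, 0.193, 0.080 and 0.0752 after hypoxia, a log2 difference of -1.22 with no overlap. After blood loss the ratios were 0.127, 0.163, 0.200 and 0.281, so blood loss 4 reached the normal range (difference -0.64, exact p = 0.114). The ratio of the DM chains themselves, H2-DMa over H2-DMb2, was 0.287, 0.409 and 0.352 in normal samples. After hypoxia it was 0.523, 0.523, 0.488 and 0.465, all above normal (difference 0.53, exact p = 0.0571).

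For the protease, Ctss over H2-DMa was 1.97, 1.11 and 1.14 in normal samples. It was 0.863, 0.921, 0.385 and 0.547 after blood loss and 1.01, 0.994, 0.882 and 0.674 in hypoxia, all below normal (differences -1.09 and -0.63, exact p = 0.0571 each). Over H2-DMb2, Ctss differed by -0.80 after blood loss with no overlap, but by -0.098 in hypoxia with overlap (exact p = 0.686), so its hypoxia ratio depended on which DM chain was the divisor.

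Against Ptprc, the leukocyte gene for CD45, 2 of the 10 comparisons with normal had groups that did not overlap. These were Ctss after blood loss (-0.90) and H2-Ob in hypoxia (-1.31). Among all pairs of tested genes, groups did not overlap in 33.5% after blood loss and in 41.8% in hypoxia. H2-Ob after blood loss (-0.74) and Ctss in hypoxia (-0.18) overlapped, each with an exact p of 0.114. H2-DMa stood at 0.19 and 0.44, H2-DMb2 at -0.098 and -0.087, and Ciita at 0.23 and -0.29, after blood loss and in hypoxia in that order, all with overlap. H2-Ob over Ctss was the single ratio whose hypoxia and blood loss values did not overlap, at 0.379, 0.372, 0.186 and 0.240 against 0.386, 0.471, 1.20 and 1.00 (difference -1.28, exact p = 0.0286, adjusted p = 0.171). The gap was narrow, from 0.379 in hypoxia 1 to 0.386 in blood loss 1. It rests on low raw counts, 17 over 44 in blood loss 1 and 12 over 10 in blood loss 3.

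**Figure D4:**
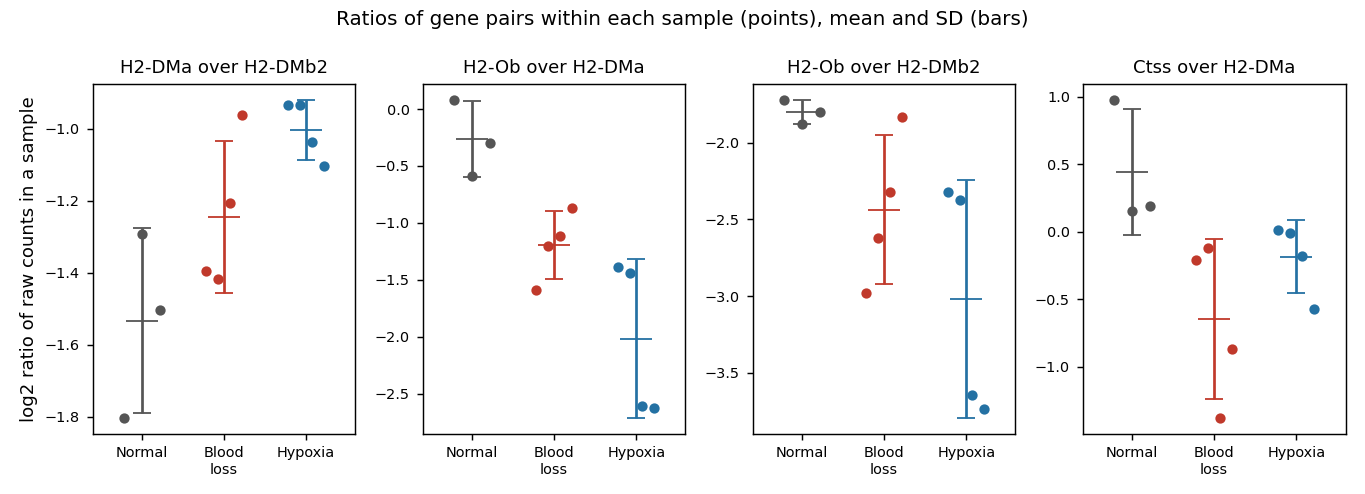
Log2 ratio of raw counts (vertical axis) of gene pairs within each of 11 samples, each point 1 sample, with the group mean and SD as bars. H2-Ob over H2-DMa lies lower in all 8 treated samples than in the 3 normal samples.

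Normal 1 was the lowest of the normal samples for all 5 genes. Raw counts of Normal 2 were 8.59 times those of Normal 1 for H2-DMa, 6.02 for H2-DMb2, 5.41 for H2-Ob, 9.28 for Ciita and 4.85 for Ctss. The median was 4.62 over the 63 tested genes with at least 100 counts in each normal sample. By contrast Cd74 and the class II chain genes H2-Aa and H2-Ab1 had fewer counts in Normal 2 than in Normal 1, at 0.520, 0.535 and 0.472 times. H2-Ea-ps had 1.31 times as many. H2-Eb1, also a chain gene, had 5.76 times as many, as the 5 members did. Normal 1 therefore had fewer members' transcripts and more of Cd74, H2-Aa, H2-Ab1 and H2-Ea-ps, relative to its factor, than the other normal samples, and the cause was not tested.

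Of the class II presentation list of 15 genes, 10 were on the panel and tested, the 5 members among them. After blood loss 4 fell (H2-Ab1, H2-Eb1, H2-Ob and Ctss), none rose and 6 were not called, with a median log2 change of -0.69. Of all tested genes 17% fell and 9.22% rose in that comparison. In hypoxia 5 fell (H2-Ab1, H2-DMb2, H2-Ob, Ciita and Ctss), 1 rose and 4 were not called, with a median of -0.88. Of all tested genes 36.5% fell and 7.09% rose in hypoxia. H2-Eb1, a beta chain, fell by 1.47 after blood loss (adjusted p = 0.00221) and stood at -0.80 in hypoxia (adjusted p = 0.0514). Without Normal 1 these were -1.58 (adjusted p = 0.000461) and -0.92 (adjusted p = 0.0193).

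The other chain genes turned on Normal 1. Scaled H2-Ab1, a beta chain, was 1527 in Normal 1 and 197 and 161 in Normal 2 and 3, beside 83.0 to 137 after blood loss and 139 to 158 in hypoxia. Its fall of 2.57 after blood loss (adjusted p = 0.00942) became -0.77 without Normal 1 (adjusted p = 0.0309). Its fall of 2.10 in hypoxia (adjusted p = 0.0117) became -0.30 (adjusted p = 0.344). Cd74, the invariant chain, was 4723, 669 and 612 in the normal samples and 3697 to 6203 in the treated samples, so Normal 1 alone lay among them. It stood at 1.34 and 1.21, not called, and without Normal 1 at 2.98 (adjusted p = 3.88e-06) and 2.85 (adjusted p = 1.98e-06). The alpha chain H2-Aa was 4659, 679 and 592 in the normal samples and 3003 to 5658 in the treated samples. It went from 0.97 and 1.15, not called, to 2.61 (adjusted p = 1.51e-05) and 2.78 (adjusted p = 2.79e-06) without Normal 1. H2-Ea-ps rose by 1.29 in hypoxia (adjusted p = 0.0407), a call kept under 3 of 5 other library factors, and stood at 0.98 after blood loss (adjusted p = 0.142). Without Normal 1 these were 2.28 (adjusted p = 9.89e-05) and 1.96 (adjusted p = 0.000606). With TMM factors 4 of the 10 fell after blood loss and 1 in hypoxia, beside 13.1% and 18.8% of tested genes. Without Normal 1 the list had 6 falls, and 3 rises (Cd74, H2-Aa and H2-Ea-ps), in each comparison. The matching shares of all tested genes without Normal 1 are not given here.

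Interferon gamma acts through its receptor, the Jak kinases and Irf1 to induce Ciita. After blood loss the receptor gene Ifngr1 fell by 0.96 (adjusted p = 0.0211) and Irf1 by 0.83 (adjusted p = 0.0416), while Jak2 rose by 0.81 (adjusted p = 0.0482). These calls were kept under 3, 2 and 3 of 5 other library factors. In hypoxia Jak1 fell by 0.82 (adjusted p = 0.0121) and Ifngr1 by 0.71 (adjusted p = 0.0429), calls kept under 2 and 0 of the 5. Irf1 was 1.39 higher in hypoxia than after blood loss (adjusted p = 0.00427), a call kept under all 5. Ifng itself, the cytokine, had under 20 raw counts in every blood loss and hypoxia sample, and reached 20 within the normal group. Raw counts follow depth, and the deepest normal library held 253712 counts, so this sets no difference in level.

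Among the regulators of Ciita tied to cell type, 5 of 7 panel genes were tested. Irf8 fell by 1.24 (adjusted p = 0.00261) and Irf4 by 1.02 (adjusted p = 0.0307) after blood loss, and none of the 5 was called in hypoxia. Of all tested genes 17% fell after blood loss, and 36.5% fell and 7.09% rose in hypoxia. With TMM factors 1 of the 5 was called lower after blood loss, beside 13.1% of tested genes. Of 3 cathepsins on the list, Ctsc, which activates granule proteases, fell beside Ctss by 0.99 after blood loss (adjusted p = 0.0307) and by 1.30 in hypoxia (adjusted p = 0.000646). Its raw counts were near the floor, at 4 to 13 after blood loss and 15 to 27 in hypoxia. The blood loss call was kept under 3 of 5 other library factors and the hypoxia call under all 5. Ctsg, a neutrophil granule protease, rose by 4.59 (adjusted p = 5.28e-07) and by 2.92 (adjusted p = 6.01e-05), but it entered the test only through the treated groups, having under 20 raw counts in every normal sample (2 to 10), so the rise was built into the choice and its size rests on counts near the floor. Of the relatives of Ciita in the NOD-like receptor family only Nod2 was on the panel, with under 20 raw counts in all 11 samples.

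Markers of cells that normally carry these 5 genes were read as well. Of 11 B cell markers on the panel 4 fell after blood loss and 6 in hypoxia, beside 17% and 36.5% of all tested genes. With TMM factors 4 fell after blood loss, beside 13.1% of all tested genes. In hypoxia 3 fell and 1 rose with those factors, beside 18.8% and 20.2%. Their summed level per sample ran from 1856 to 3640 (normal), 1141 to 2254 (blood loss) and 1162 to 1951 (hypoxia). The 12 macrophage and monocyte markers had sums, in the same order, of 286 to 516, 209 to 363 and 59.1 to 200.7. In raw counts 10 of those 12 stayed under 20 in all blood loss samples and 9 in all hypoxia samples, and several passed the filter through the normal group alone, so calls over that list are not counted. The 7 dendritic cell markers had sums of 1515 to 2099, 1486 to 2273 and 1324 to 2432, which overlapped between all groups. Those sums mainly follow Ccr7 and Cd83, with means of 1251 and 343 in normal and 953 and 742 in hypoxia samples. Of 5 tested, Cd83 rose in hypoxia by 1.13 (adjusted p = 0.0233), beside 7.09% of tested genes called higher. Itgax fell by 2.21 (adjusted p = 0.000258) but passed the filter through the normal group alone, and 3 were not called. No marker was at a raw count of 0, since the lowest value in the table is 1. Ptprc fell by 0.88 in hypoxia (adjusted p = 0.0117) and stood at -0.65 after blood loss (adjusted p = 0.0837). The hypoxia call was kept under 2 of 5 other library factors and lost with TMM and both kinds of size factor. The part of these cells in the fall of H2-Ob, Ctss, Ciita and H2-DMb2 was not tested, and in bulk RNA fewer cells of a type and less RNA per cell cannot be told apart.

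Of the erythroid markers, Tfrc rose by 1.61 after blood loss and 1.28 in hypoxia, and Cd36 by 1.39 and 1.16. Cd55 fell by 1.13 and 1.11. The Tfrc and Cd36 calls were kept under all 5 other library factors. Those of Cd55 were kept under 5 after blood loss and 3 in hypoxia. After blood loss 9.22% of all tested genes rose and 17% fell, and in hypoxia 7.09% rose and 36.5% fell. Tal1 had under 20 raw counts in every normal sample and passed the filter only through the treated groups, and Kit had under 20 in all samples. The 18 T and NK cell markers had sums of 1329 to 1602 (normal), 812 to 1320 (blood loss) and 605 to 1109 (hypoxia), with 13 of them under 20 raw counts in every blood loss sample. A large part of these sums was Cd2, with means of 873 in normal and 609 in hypoxia samples. Cd2 was not called in hypoxia (-0.52, adjusted p = 0.196), so the sums say little about the other markers. Granulocyte markers, 3 of 7 tested, had 2 rises after blood loss (Camp and S100a9) and 1 in hypoxia (Camp). These stand beside 9.22% and 7.09% of all tested genes called higher. The granulocyte sums were 1767 to 2399, 3064 to 7028 and 1650 to 3798.

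Across the 11 samples the pattern most like that of H2-DMa was that of Cybb, an oxidase subunit of phagocytes (Pearson r = 0.897 of log2 level plus 1), followed by Cd69 and Bid. H2-DMb2 was most like Ms4a1, the B cell antigen CD20 (r = 0.932), and Ly86 (r = 0.930). H2-Ob was most like the chemokine Ccl6 (r = 0.931) and Ctsc (r = 0.915). Ccl6 had raw counts of 1 to 7 after blood loss and 3 to 8 in hypoxia. It passed the filter through the normal samples alone, so its likeness rests on counts near the floor. Ctsc had raw counts of 4 to 13 after blood loss. Ciita was most like Icosl, a costimulatory ligand (r = 0.954), and Stat6 (r = 0.936). Ctss was most like H2-Eb1 (r = 0.957) and Il16 (r = 0.930). Among the members H2-DMa and H2-DMb2 were most alike (r = 0.854) and Ciita and Ctss least (r = 0.306). These are descriptions over 11 samples in 3 groups that share their library factors, with no test.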

How the data were processed

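The authors deposited raw counts (whole numbers, lowest value 1) for 561 genes in 12 columns, a normalized count signal and a log2 table. As computed from the values, the deposited signal equals the raw count over a median-of-ratios size factor (largest relative difference 3.33e-16), and the deposited log2 values equal log2 of that signal plus 1 (within 0.00500). How background was handled, and with which software, is not given in the sources used here.

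Raw counts of 11 samples were fitted together with the robust quasi-likelihood test of edgeR 4.0.16 under R 4.3.3. Group, from the labelled condition, was the only term. Each sample's factor was a geometric mean over Eef1g, Gapdh, Oaz1, Polr2a, Ppia and Rpl19, the 6 of 14 housekeeping genes whose raw counts averaged 100 or more. Endogenous genes with a raw count of at least 20 in at least 3 samples were tested (282 of 547), with Benjamini-Hochberg adjustment over all of them and calls at 0.05. Log2 ratios within samples were tested with exact permutation tests in scipy 1.17.1, 45 in all. DESeq2 1.42.0 was an alternative. The steps were tested on simulated data. Control probes were not used here, so no background limit is given.

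The members, lists and tests were chosen with earlier results of these data known. The text names the members in full, the genes most like each in Pearson r, all of the class II list, and up to 3 genes with the smallest p of each other list, plus others where a count of 5 or fewer is given. One gene of the interferon gamma list, and the counts over that list, are not reported here. Alternatives covered library factors, filters, background, columns, the test, a replicate block and each sample left out.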

Additional observations from a re-analysis of the deposited data

Results flagged for a closer look

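In groups of 4 samples, a sample stands apart when its gap to the nearest other is over 0.829 of the group's range. Chance gives such a gap in about 1 in 20 groups, and 40 groups were checked. For H2-Ob after blood loss, sample 1 was low at 52.3 while the other 3 stood between 84.0 and 90.0, a gap of 0.841 of the range. For Ctss in hypoxia, sample 3 was high at 196 while the other 3 stood between 147 and 153, a gap of 0.878 of the range. Both samples lay below every normal sample, and both calls against normal held without them. The gap rule cannot see a split of 2 samples against 2. Hypoxia 1 and 2 lay below hypoxia 3 and 4 for H2-DMa (146 and 154 against 223 and 226). They also did for H2-DMb2 (279 and 295 against 456 and 486). For H2-Ob they lay above (55.8 and 57.1 against 36.5 and 36.6). Ciita and Ctss did not split so clearly, and the cause was not tested.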

How the results depend on the processing

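Each gene result was recomputed under 23 alternatives, 11 of which leave out 1 sample. H2-Ob kept its call in both comparisons with normal under all 23, and Ctss after blood loss under all 23. Ctss in hypoxia kept it under 20, Ciita under 19 and H2-DMb2 under 17. The cause of the changes below was not tested.

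Calls after blood loss numbered 74 (26 higher, 48 lower), in hypoxia 123 (20, 103) and between hypoxia and blood loss 32 (2, 30). With size factors over all genes they were 136 (14, 122) after blood loss and 96 (93, 3) between the treated groups, with no count filter 247, 196 and 235, and with all 12 columns 114, 234 and 80. Between the treated groups 14 housekeeping genes gave 7 and subtraction of the 25th percentile 9. TMM factors split the calls as 41 higher and 37 lower, 57 and 53, and 8 and 15. Size factors over the tested genes gave 39 and 38, 56 and 55, and 8 and 15. In hypoxia size factors over all genes gave 52 and 63. The 14 housekeeping genes gave 15 and 93 after blood loss and 21 and 82 in hypoxia. Leaving out 1 sample gave 39 (without Normal 2) to 94 calls after blood loss, 67 (without Normal 2) to 133 in hypoxia and 12 to 40 between the treated groups.

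With size factors over all genes, differences after blood loss were -0.97 for H2-DMa (adjusted p = 0.00653), -1.22 for H2-DMb2 (0.00283) and -0.91 for Ciita (0.0197). In hypoxia they were -0.48 for H2-DMb2 (0.210), -0.71 for Ciita (0.0507) and -0.60 for Ctss (0.0989). Between hypoxia and blood loss they were 0.97 for H2-DMa (0.00811), 0.73 for H2-DMb2 (0.0487), 0.075 for H2-Ob (0.832), 0.20 for Ciita (0.651) and 1.26 for Ctss (0.00276). TMM factors gave, in hypoxia, 0.10 for H2-DMa, -0.39 for H2-DMb2 (0.222), -0.60 for Ciita (0.0788) and -0.50 for Ctss (0.112), and 0.15 for H2-DMb2 between hypoxia and blood loss. Size factors over the tested genes gave 0.076, -0.41 (0.215), -0.63 (0.0643), -0.52 (0.111) and 0.18 for the same 5. The 14 housekeeping genes gave -0.85 for H2-DMa (0.0210) and -1.07 for H2-DMb2 (0.00857) after blood loss and 0.26 for H2-DMb2 between hypoxia and blood loss. H2-DMb2 after blood loss was -0.80 with no filter (0.0462), -0.84 with 12 columns (0.0290) and -0.80 in DESeq2 (0.0259). H2-DMa in hypoxia was -0.59 with 12 columns (0.0466). H2-Ob between hypoxia and blood loss was -0.77 with no filter (0.0354), with 12 columns (0.0447) and in DESeq2 (0.0470).

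Leaving out 1 sample moved H2-DMa from -0.86 (without Normal 1, adjusted p = 0.0187) to -0.31 after blood loss, from -0.76 (without Normal 1, 0.0191) to -0.22 in hypoxia, and from -0.0096 (without hypoxia 4; -0.0008 without hypoxia 3) to 0.20 between the treated groups. H2-DMb2 moved from -0.99 (without Normal 1, 0.0182) to -0.66 after blood loss, with a call also without blood loss 2 (-0.92, 0.0492). In hypoxia it ran from -1.14 to -0.81 (without Normal 2, 0.0743), and the call was also lost without Normal 3 (0.0540) or hypoxia 1 (0.0543). Ciita in hypoxia ran from -1.46 to -0.90 (without Normal 2, 0.0699). H2-Ob between hypoxia and blood loss ran from -0.92 (without blood loss 1, 0.0382) to -0.67.

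Replicate numbers are shared across groups, but same-numbered samples correlated between -0.293 and 0.110 in their deviations, so the numbers were not taken as pairs. With a replicate block, calls numbered 68, 123 and 30, and H2-Ob stood at -1.39 (adjusted p = 0.00236) and -2.15 (3.39e-06); no member call changed. Depth limits the blood loss values most, since those libraries hold 7016 to 31006 counts.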
